A study of Mus musculus with 2 samples.

Results

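Heme and iron handling was followed through 10 genes, chosen by symbol: Hmox1, Cd163, Slc40a1, Slc11a1, Fth1, Ftl1, Tfrc, Blvrb, Hpgd and Hp. Each matched 1 of the 32285 gene rows in both deposited single-cell matrices. The cells were viable CD45-positive leukocytes sorted in aristolochic acid nephropathy, labelled AAN CKD, from the kidneys of mice of the B6 strain. CD45 is the surface protein carried by nearly all leukocytes, and aristolochic acid is a plant toxin that damages the kidney tubule. One genotype and one treatment are given for all cells, untreated kidneys were not analysed here, and comparisons are therefore between cell classes of the diseased kidneys. The cells came from 2 hashed samples, marked by antibody-borne barcodes. The time label reads Week 2, while the title names W1 and W2 and Mouse 1, and nothing ties a hashed sample to a week or says that they are separate animals. For that reason no test was run, and paired values are always hashed sample 1 first and hashed sample 2 second. Human kidneys appear in the protocol text and mesenchymal stem cells in the cell type label, while all gene identifiers are mouse.

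Macrophages take up dying red cells and free hemoglobin, break the heme down and either store the iron or return it to the circulation. Haptoglobin (Hp) binds free hemoglobin and the receptor Cd163 takes up the complex. Heme oxygenase 1 (Hmox1) opens the heme ring to biliverdin, iron and carbon monoxide, and biliverdin reductase B (Blvrb) reduces biliverdin and flavins. Ferritin, a shell of heavy (Fth1) and light (Ftl1) chains, stores the iron, ferroportin (Slc40a1) exports it from the cell, Slc11a1 (NRAMP1) moves metal ions out of the phagosome, and Tfrc imports iron bound to transferrin. Hpgd inactivates prostaglandins and has no direct part in iron handling, although it was part of the gene set.

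Several of these messages carry an iron-responsive element, a hairpin that iron regulatory proteins bind when iron is scarce. In a 5′ untranslated region the bound protein blocks translation, so that the encoded protein can change without the transcript level measured here. In a 3′ untranslated region it protects the message from decay, so that the transcript level itself can change. The elements are shown because they mark which members have either kind of control. A search of the GENCODE transcripts on GRCm38 for the loop CAGTGN (N any base but G), closed by 5 pairs (G with T allowed) above a C, with at least 3 of the next 4 bases paired, found them in the 5′ untranslated regions of Fth1, Ftl1 and Slc40a1 and 4 times in the 3′ untranslated region of Tfrc. It found the element in 14 of 55678 transcripts with a 5′ untranslated region, 0.025%. Each is printed 5′ to 3′ as 29 bases of the strand of its gene, with the loop in capitals.
Fth1, chr19:9982732-9982760, plus strand: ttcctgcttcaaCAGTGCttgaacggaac
Ftl1, chr7:45459779-45459807, minus strand: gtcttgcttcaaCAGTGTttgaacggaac
Slc40a1, chr1:45925465-45925493, minus strand: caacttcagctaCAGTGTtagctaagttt
Tfrc, chr16:32631219-32631247, plus strand: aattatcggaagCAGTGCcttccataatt
Tfrc, chr16:32631598-32631626, plus strand: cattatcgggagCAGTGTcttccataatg
Tfrc, chr16:32631663-32631691, plus strand: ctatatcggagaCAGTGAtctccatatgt
Tfrc, chr16:32631710-32631738, plus strand: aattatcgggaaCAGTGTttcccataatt
The ferritin elements have the same 3′ arm, and the ferroportin element has other arms around a CAGTGT loop like that of Ftl1.

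The deposited matrices held 20743037 and 25314154 unique molecular identifiers (UMIs, each counting 1 captured RNA molecule), and 3086 and 3466 cells passed the filters, with medians of 5665.5 and 6566.5 UMIs. The cells formed 24 clusters, of which 13 were myeloid. Neither the 10 members nor 46 further heme and iron genes entered the clustering. The 5 clusters that were resident macrophage-like by their markers held 1025 and 1450 cells, and all 10 of the resident macrophage markers were seen in them, at medians of 621 and 493 UMIs per 10000. C1qa, a complement gene that defines them, reached 6804 and 6712 CPM, where CPM scales the summed UMIs of every class to the same total, against 132 and 154 CPM in T cell-like cells, where RNA released by other cells can set the level. Monocyte-like cells (cluster 8, 135 and 161 cells) were marked by Chil3 at 3087 and 1599 CPM, and type 2 dendritic cell-like cells (cluster 5, 197 and 310 cells) by Cd209a at 369 and 632 CPM. Hemoglobin genes and Alas2, 5 red cell genes, were at a median of 0 in all of these classes.

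Hmox1 message was unevenly spread over cells of the same cluster. To compare cells at equal depth, a random draw of 2000 UMIs was kept from every cell that had them, 5905 cells in all. Of these, 35 cells (0.593%), all in myeloid clusters, had 5 or more Hmox1 UMIs, and the highest had 30. A further 35 cells had 3 or 4 and 7 of the 35 cells above the threshold had 5 or 6. The threshold divides a range of values and does not define a cell type, and it was set after the values were seen. The hashed samples contributed 10 and 25 such cells, which held 22.4% and 43.6% of all Hmox1 UMIs. Cluster 0, a resident macrophage-like cluster, held 11 of them, monocyte-like cluster 8 held 8, unnamed clusters 7 and 10 held 6 each, resident macrophage-like cluster 9 held 3 and unnamed cluster 3 held 1. Among resident macrophage-like cells there were 2 and 12, and they carried 6.25% and 41.0% of the Hmox1 UMIs of that class. No such cell was found among 192 and 305 type 2 dendritic cell-like or 865 and 413 T cell-like cells, for which the exact 95% upper limits were 1.90% and 1.20%, and 0.426% and 0.889%.

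Cells rich in Hmox1 were also rich in ferritin message and, in hashed sample 2, in ferroportin message. Over the myeloid clusters, Fth1 was at 9021 and 8017 CPM in the cells without an Hmox1 UMI, at 10386 and 10053 CPM in those with 1, at 15275 and 14958 CPM in those with 2 to 4, and at 25350 and 29980 CPM in those with 5 or more. The level was higher at each step in both hashed samples. Ftl1 had the same order, from 5275 and 5581 CPM through 6891 and 7180 CPM and 10608 and 11288 CPM to 21250 and 18780 CPM. Blvrb went from 194 and 191 CPM in the cells without an Hmox1 UMI to 500 CPM (95% counting interval 240 to 920) and 600 CPM (405 to 857) in the richest cells. The order of Fth1, Ftl1 and Blvrb followed that of Hmox1 in each hashed sample. These groups pool the myeloid clusters, which themselves differ in Hmox1 and in ferritin message. The part of that in the steps was not tested.

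Slc40a1, the exporter, stood at 5.54 and 4.88 CPM in myeloid cells without an Hmox1 UMI, at 9.09 and 10.9 CPM with 1, and at 29.4 and 42.4 CPM with 2 to 4. In the richest cells it reached 360 CPM in hashed sample 2 (213 to 569, 18 UMIs in 9 of 25 cells). No Slc40a1 UMI was found in the 10 richest cells of hashed sample 1, where 3 counts would be 150 CPM, so that a level like that of hashed sample 2 was not seen there and a lower one was not detectable. With the hashed samples pooled, those 9 cells, all of hashed sample 2, were 25.7% of the richest cells (12.5 to 43.3). Of the cells with no Hmox1 UMI, 0.687% had an Slc40a1 UMI (0.449 to 1.00). These intervals do not cover the difference between the hashed samples. Without thinning, and again pooled, 33 myeloid cells had at least 25 Hmox1 UMIs per 10000, of which 29 were also among the 35. They held 103 Slc40a1 UMIs in 14 cells, or 323 CPM, and the 4394 other myeloid cells held 174 in 78 cells, or 4.94 CPM.

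Further genes were looked up in the same cells after these values were seen. Spic and Slc48a1 belong to the further heme and iron genes left out of the clustering, whose other levels in these cells are not given. Gclm and Prdx1 do not belong to them. They stood high in a ranking of genes by log2 ratio of the richest cells to all others, at 3.22 and 2.48. Their high levels are therefore no independent result. Levels of the other genes of that ranking, apart from the members, are not given here. Spic, the transcription factor of red pulp macrophages that recycle red cell iron, was at 150 CPM (30.9 to 438) and 100 CPM (32.5 to 233) in the richest cells, from 3 and 5 UMIs, and at 1.63 and 3.11 CPM in myeloid cells with no Hmox1 UMI. The heme transporter Slc48a1 was at 180 CPM (82.3 to 342) in the richest cells of hashed sample 2 against 33.7 CPM in cells with none, while hashed sample 1 had 1 UMI, against 44.4 CPM in cells with none. Gclm, which makes glutathione, reached 550 and 460 CPM against 37.2 and 39.0 CPM, and the peroxide-reducing enzyme Prdx1 reached 1250 and 3640 CPM against 578 and 553 CPM. Slc11a1 was a member without such a pattern. It was at 200 and 80.0 CPM in the richest cells, from 4 UMIs each, and at 111 and 92.1 CPM in those with none. Tfrc had no UMI in the 35 cells. It was at 3.24 and 3.73 CPM over the resident macrophage-like cells, too low for so few cells to show whether it had such a pattern. Values of Cd163 and Hp in the richest cells are not given here. Hpgd had 0 and 2 UMIs in the richest cells, or 0 and 40.0 CPM, although it was at 167 and 373 CPM in the cells with 2 to 4 Hmox1 UMIs and at 93.9 and 168 CPM in those with none.

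Depth and quality measures of the richest cells lay near those of the rest. Their median was 8049 UMIs before thinning against 7436 in the other myeloid cells, the median mitochondrial share was 2.08% against 1.94%, and the genes of dissociation stress had medians of 20.4 and 22.6 UMIs per 10000. No UMI of the 5 red cell genes was found in them. Because the cells were chosen on Hmox1, its own level in them is no result, and the other genes were measured in the same cells, so that a shared cell or droplet lies behind every value.

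**Figure D1:**
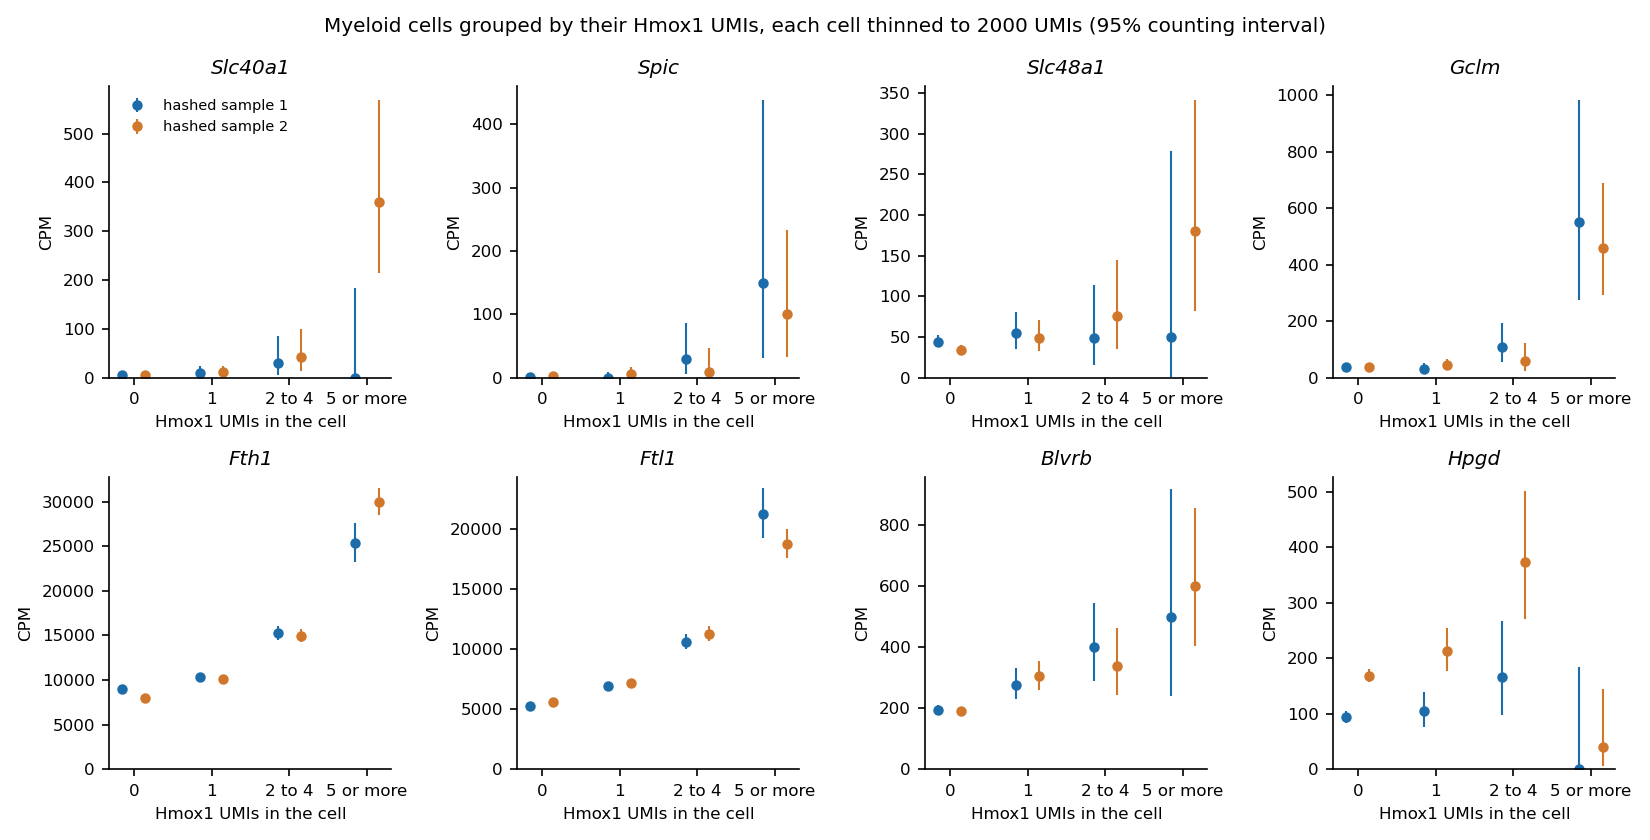
Level (CPM, linear axis from 0) of 8 genes in cells of the myeloid clusters grouped by the number of Hmox1 UMIs in the cell after thinning to 2000 UMIs; points are hashed samples and bars exact 95% counting intervals. Fth1 and Ftl1 are higher at each step in both hashed samples, and Slc40a1 is high only in the last group of hashed sample 2, at 360 CPM.

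The same genes were compared within the classes that held most of these cells, with the hashed samples pooled. Of the 14 resident macrophage-like ones, 2 came from hashed sample 1 and 12 from hashed sample 2, and the intervals cover counting error only. Among the 14 resident macrophage-like ones, Fth1 was at 28714 CPM against 9331 CPM in the 2184 other resident macrophage-like cells (3.08-fold, 2.87 to 3.30), Ftl1 at 18143 against 6190 CPM (2.93-fold, 2.68 to 3.20) and Blvrb at 607 against 290 CPM (2.10-fold, 1.22 to 3.37). Slc40a1 was at 393 against 11.4 CPM (34.3-fold, 16.1 to 66.8), with all 11 UMIs in hashed sample 2. In cluster 10, the 6 richest cells had Fth1 at 50500 against 19658 CPM and Ftl1 at 31083 against 11283 CPM in the rest of the cluster. In cluster 7, also with 6, Fth1 was at 22250 against 8465 CPM and Ftl1 at 15917 against 5256 CPM, and Slc40a1 had no UMI in the 3 cells of hashed sample 1 and 6 UMIs in the 3 of hashed sample 2. The 8 richest monocyte-like cells had Blvrb at 188 against 158 CPM (1.18-fold, 0.239 to 3.58), and no Slc40a1 UMI, with Fth1 at 14875 against 6825 CPM (2.18-fold, 1.90 to 2.49) and Ftl1 at 15688 against 6811 CPM (2.30-fold, 2.02 to 2.62). Of the resident macrophage-like cells among them, 2 of 2 and 10 of 12 were low in MHC class II, the comparison that follows.

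The design text names MHC II-negative resident macrophages. The summed UMIs of 3 class II chain genes (H2-Eb1, H2-Aa, H2-Ab1) divided the resident macrophage-like cells at 47.4 UMIs per 10000 into 216 and 661 MHC II-low cells (21.1% and 45.6%) and 809 and 789 MHC II-high cells. The level was chosen from the distribution, and 217 of the 2475 cells (8.77%) lay within 1.5-fold of it. The MHC II-low cells had 257 and 288 CPM of Hmox1 and the MHC II-high cells had 93.3 and 108 CPM, 2.75-fold (2.39 to 3.17) and 2.67-fold (2.40 to 2.96) higher. It was the 1 member of 6 measured that was higher by at least 1.5-fold in both hashed samples, a rule that 2.26% of 2744 measured genes met in that direction and 1.64% in the other. A gene counted as measured when, in both hashed samples, either class reached 50 CPM. The members' median log2 ratio, with 10 CPM added to both levels, was 0.28 and 0.19, and that of all measured genes 0.13 and 0.12.

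Without the cells of 5 or more Hmox1 UMIs the MHC II-low cells had 205 and 128 CPM of Hmox1 against 93.3 and 73.3 CPM, 2.20-fold and 1.75-fold, still past the rule. In thinned counts, 2 of 191 and 10 of 596 MHC II-low cells held 16.7% and 49.8% of their Hmox1 UMIs. The counting intervals of the folds above do not cover this spread between cells. The dissociation stress genes were lower in the MHC II-low cells, at medians of 7.56 and 10.4 against 15.2 and 18.0 UMIs per 10000, and their part in the result was not tested. Within cluster 0, MHC II-low cells had 283 and 340 CPM of Hmox1 against 160 and 217 CPM, and within cluster 9 they had 298 and 299 CPM against 97.3 and 104 CPM. Hmox1 was the 1 member higher within each of these clusters and none was lower, where 0.809% of measured genes were higher and 0.441% lower in cluster 0, and 1.87% and 0.878% in cluster 9. Neither cluster 1, with Hmox1 at 102 and 80.8 CPM against 69.3 and 55.2 CPM, nor cluster 11 had a member past the rule, where 1.52% and 10.8% of genes were higher and 0.739% and 3.91% lower. Cluster 11 had only 4 and 18 MHC II-low cells, with 0 and 9 Hmox1 UMIs against 82 and 25, too few to decide. In cluster 6, with 20 and 67 MHC II-low cells, Hpgd was the 1 member lower and none was higher, where 3.78% and 10.3% of genes were. Both calls were lost without the Hmox1-rich cells, when cluster 0 had 204 and 150 CPM against 160 and 110 CPM and cluster 9 had 298 and 113 CPM against 97.3 and 77.5 CPM.

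Of the other members, Cd163 reached 115 and 47.3 CPM among MHC II-low cells against 39.2 and 12.3 CPM among MHC II-high cells, and Slc40a1 reached 27.8 and 21.3 CPM against 3.83 and 9.47 CPM. Neither reached 50 CPM in both hashed samples, so that neither counted as measured. The ratios were 2.93-fold (2.36 to 3.63) and 3.85-fold (2.86 to 5.26) for Cd163 and 7.26-fold (4.08 to 13.4) and 2.25-fold (1.56 to 3.29) for Slc40a1. Without the Hmox1-rich cells Slc40a1 was at 19.4 and 17.4 CPM against 3.83 and 4.32 CPM, 5.06-fold and 4.03-fold. Tfrc had 11 and 30 UMIs in the MHC II-low cells and 9 and 4 in the MHC II-high cells. Blvrb, Ftl1 and Fth1 had log2 ratios of 0.63 and 0.41, 0.46 and 0.30, and 0.11 and 0.09, none of which met the rule in both hashed samples. Slc11a1 had 0.04 and -0.21, and Hpgd -0.57 and -0.17. In the wider list of heme and iron genes, 12 of 46 were measured and Maf, a transcription factor of resident macrophages, was the 1 that met the rule, with log2 ratios of 0.97 and 0.87.

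**Figure D2:**
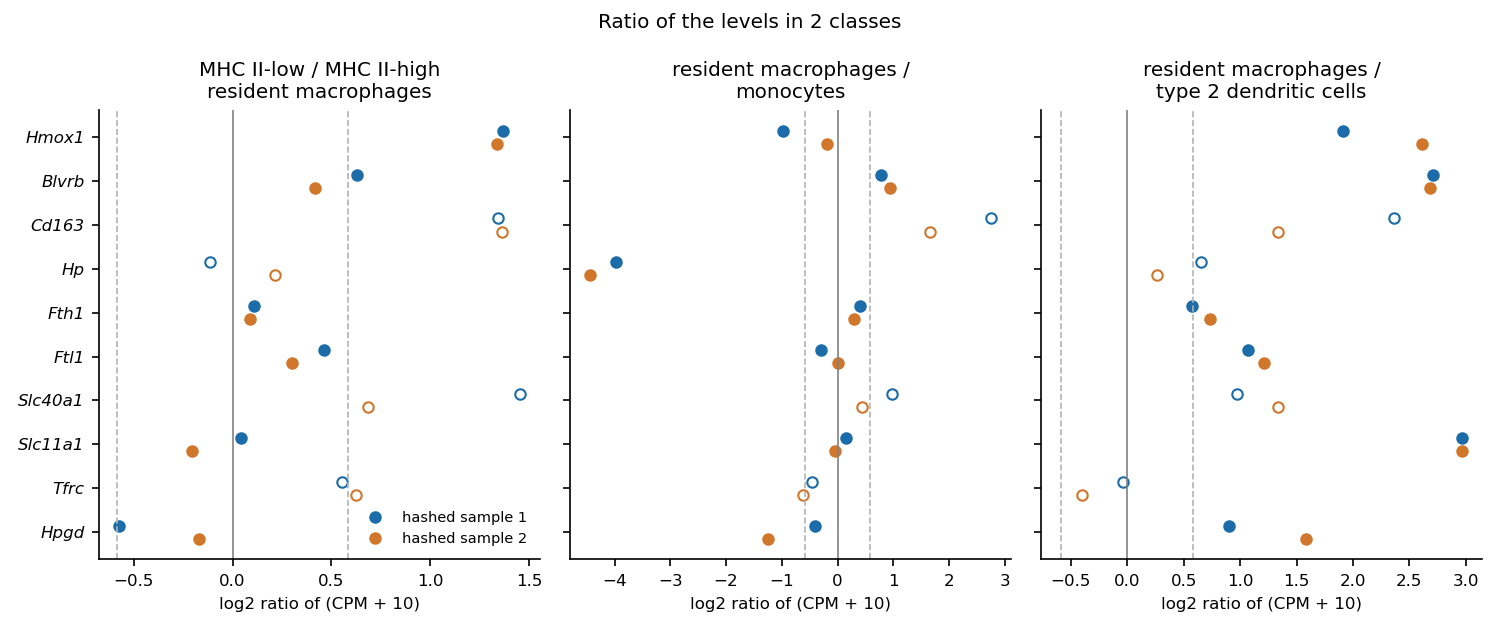
log2 ratio of the levels (CPM with 10 CPM added) of each gene in 3 comparisons, with filled points for measured genes, open points for genes under the measured level and dashed lines at 1.5-fold. In MHC II-low against MHC II-high cells only Hmox1 is a filled gene beyond the line in both hashed samples.

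Among the resident macrophage-like clusters, the hemoglobin receptor Cd163 belonged to cluster 0, which was led by F13a1, Ccl8, Selenop, Pf4 and Stab1. Cd163 was at 153 and 57.5 CPM there and between 6.23 and 29.2 CPM in the other resident macrophage-like clusters. Against the other resident macrophage-like cells together, cluster 0 had 12.6-fold (9.32 to 17.3) and 7.56-fold (5.36 to 10.9) more Cd163, 2.42-fold (2.11 to 2.79) and 2.60-fold (2.35 to 2.87) more Hmox1 and 1.94-fold (1.76 to 2.13) and 1.72-fold (1.60 to 1.85) more Blvrb. These 3 of 7 measured members were higher, where 4.5% of measured genes were higher and 3.13% lower. Without the Hmox1-rich cells Hmox1 stayed past the rule, at 181 and 137 CPM against 90.9 and 71.2 CPM. Slc40a1 was at 23.8 and 29.4 CPM in cluster 0 and at most 12.8 CPM in the other resident macrophage-like clusters. Fth1, Ftl1 and Slc11a1 in cluster 0 differed from the rest by log2 ratios between -0.06 and 0.19. In the wider list, Hfe, which takes part in iron sensing, and Maf were higher in cluster 0.

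Cd163 and Hmox1 were also compared cell by cell within cluster 0. After thinning to 2000 UMIs, Cd163 was seen in 32 and 45 cells of cluster 0, and 34.4% (18.6 to 53.2) and 28.9% (16.4 to 44.3) of these had an Hmox1 UMI, against 26.5% (21.2 to 32.4) and 22.2% (18.7 to 26.1) of the cells without Cd163. The intervals overlap. Lyve1, a marker of a perivascular macrophage state, was seen in 15.6% (5.28 to 32.8) and 15.6% (6.49 to 29.5) of the Cd163 cells and in 6.72% (3.96 to 10.5) and 2.34% (1.21 to 4.05) of the others, and only in hashed sample 2 do these intervals lie apart.

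Cluster 1, led by Apoe, Col14a1 and C1qa, had Hmox1 at 72.0 and 60.3 CPM against 162 and 239 CPM in the other resident macrophage-like cells, and Hpgd at 155 and 288 CPM against 82.4 and 183 CPM. Of 6 measured members, Hpgd was higher and Hmox1 lower, where 0.754% and 3.2% of genes were. In cluster 11, led by the interferon-induced genes Cxcl9 and Cxcl10, Hmox1 was at 81.0 and 53.6 CPM and Hpgd at 32.6 and 74.1 CPM, both lower than in the other resident macrophage-like cells, where 4.54% of measured genes were lower and 7.17% higher. Cluster 9, led by the lysosomal and bone-resorption genes Ctsk, Acp5 and Atp6v0d2, had Hpgd at 21.5 and 92.0 CPM against 115 and 240 CPM, lower where 6.52% of genes were lower and 3.98% higher, and Ftl1 at 8104 and 8573 CPM, the highest among the 5 clusters without passing the rule. In cluster 6, Hmox1, Fth1, Ftl1 and Blvrb were lower, where 6.3% of genes were lower and 25.1% higher. Without the Hmox1-rich cells, which sit among the other cells of these comparisons, Hmox1 stayed past the rule, and its fold in hashed sample 2 went from 0.253 to 0.536 in cluster 1, from 0.259 to 0.519 in cluster 11 and from 0.174 to 0.344 in cluster 6. The cells of cluster 6 were shallow, with a median of 1760 UMIs, and the part of this in the 4 values was not tested.

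**Figure D3:**
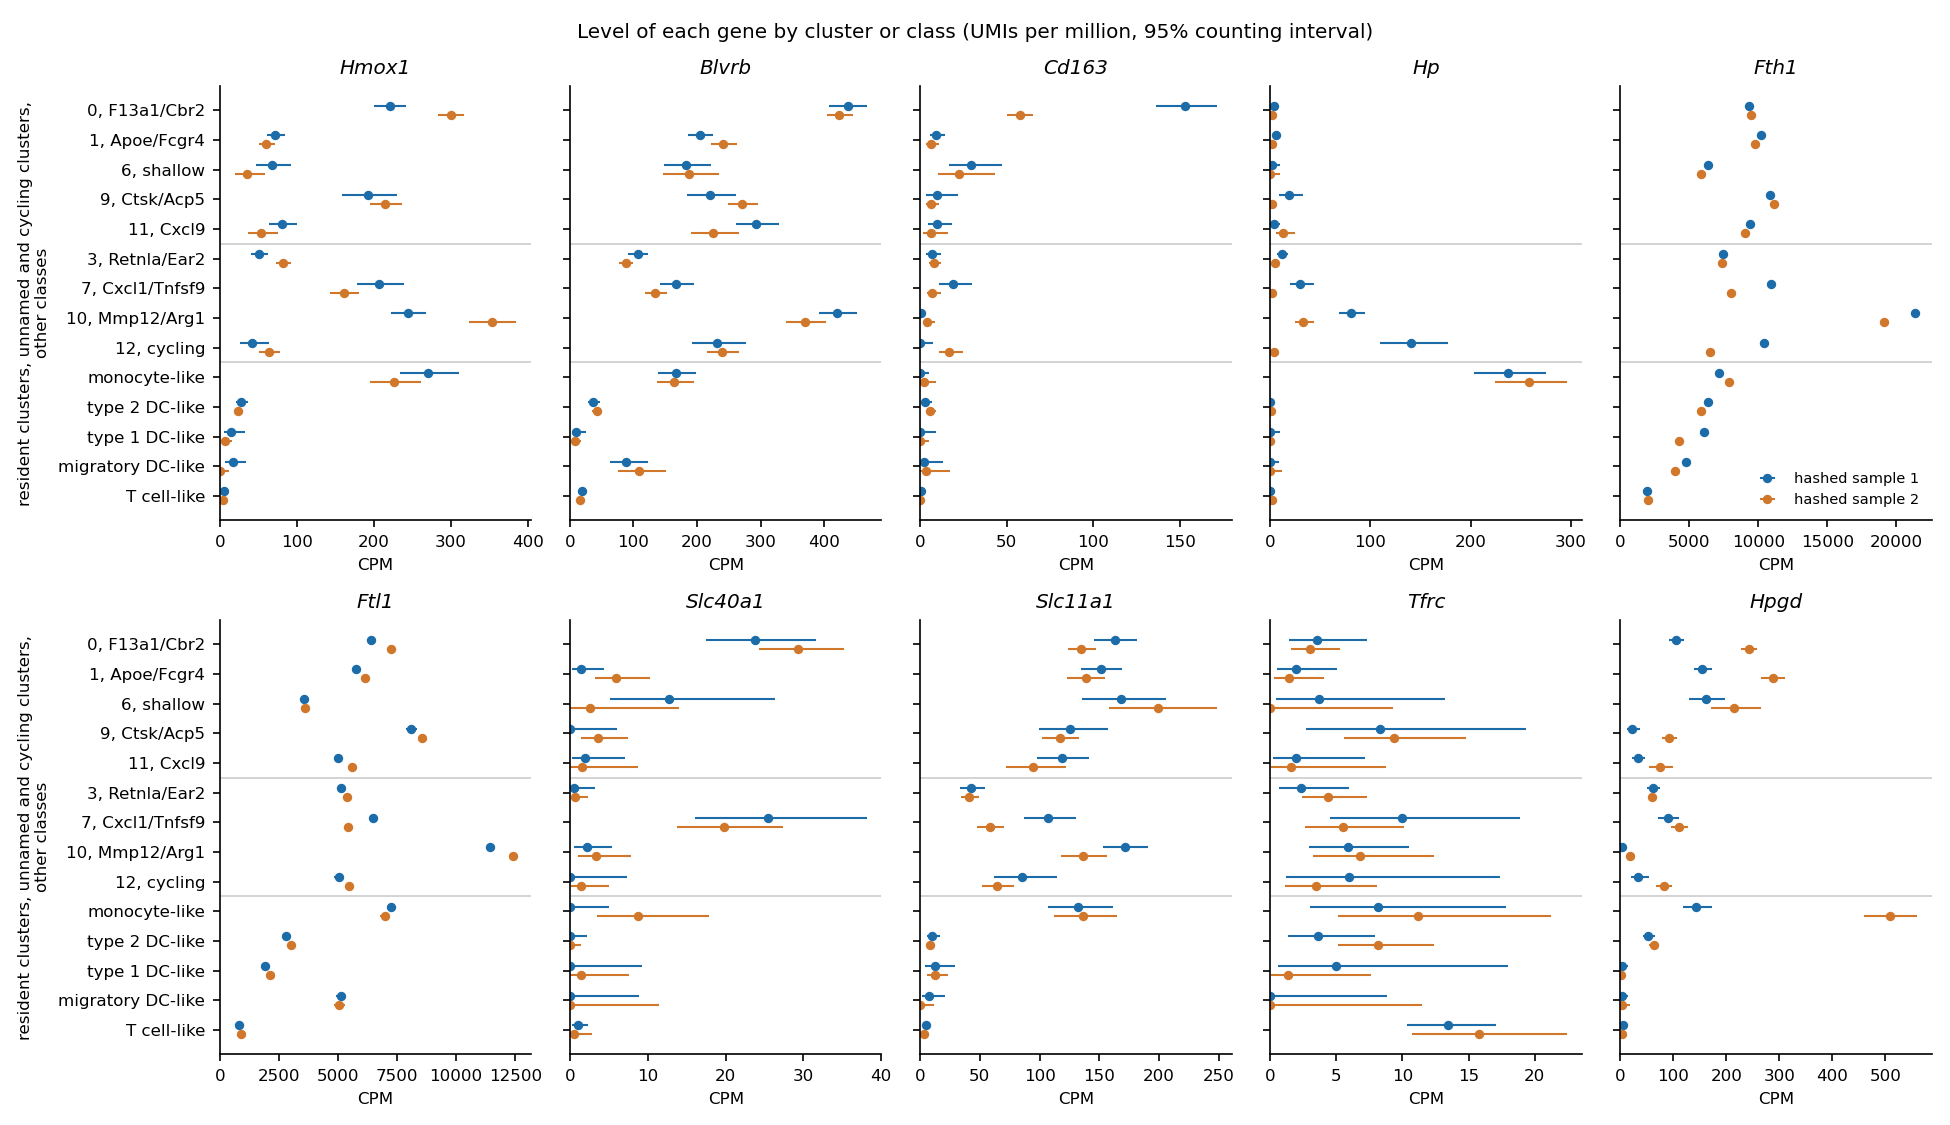
Level (CPM, linear axes from 0) of the 10 genes in 5 resident macrophage-like clusters, 4 unnamed or cycling clusters and 5 other classes; points are hashed samples and bars exact 95% counting intervals, and gray lines divide the kinds of cells. Cd163 stands out in cluster 0, at 153 and 57.5 CPM, Hp in monocyte-like cells, at 237 and 259 CPM, and Fth1 in cluster 10, at 21400 and 19094 CPM.

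Cluster 10 held the highest ferritin levels among the myeloid clusters. It was led by Mmp12, Arg1, Lpl and Gpnmb, all markers of an Arg1 state, but state markers were not used to name clusters. The cluster had too few markers of any cell type to be named, at best 4 of 10 for classical monocytes. Its 151 and 111 cells were deep, with a median of 12290 UMIs. It was compared with the resident macrophage-like cells after its values were seen. Fth1 was at 21400 and 19094 CPM against 9516 and 9693 CPM (2.25-fold and 1.97-fold) and Ftl1 at 11443 and 12408 CPM against 5872 and 6994 CPM (1.95-fold and 1.77-fold). Hmox1 was at 244 and 353 CPM against 132 and 196 CPM, and Hpgd at 2.13 and 18.2 CPM against 106 and 208 CPM. Of 6 measured members these were 3 higher and 1 lower, where 10.2% and 12.7% of measured genes were. The Hmox1 call was lost without the Hmox1-rich cells, at 136 and 137 CPM against 120 and 99.8 CPM, whereas Fth1 stayed 2.22-fold and 1.93-fold higher and Ftl1 1.90-fold and 1.73-fold. The stress genes of cluster 10 were at medians of 26.9 and 33.4 UMIs per 10000, and the part of stress and of depth in these values was not tested.

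Other heme genes of cluster 10 differed in both directions. Alas1, the first enzyme of heme synthesis, was at 400 and 249 CPM against 44.1 and 55.6 CPM in the resident macrophage-like cells. Slc48a1, which carries heme out of the phagolysosome, was at 118 and 93.9 CPM against 38.4 and 39.2 CPM, and Nfe2l2 (NRF2), a transcription factor of the antioxidant response, was at 284 and 316 CPM against 146 and 173 CPM. Hfe, transferrin (Trf) and Maf were lower. These were 3 higher and 3 lower of 13 measured genes in the wider list of 46. Cd163 had 1 and 6 UMIs in cluster 10 and Slc40a1 4 and 5. Hp was at 81.0 and 33.1 CPM there, and in the cycling cluster 12 it was at 141 CPM in hashed sample 1 and 4.17 CPM in hashed sample 2. Outside cluster 0, the myeloid cluster with most Slc40a1 was the unnamed cluster 7, at 25.4 and 19.7 CPM, which was led by Cxcl1, Tnfsf9 and Cd14 and had the stress genes at medians of 101 and 92.5 UMIs per 10000, whose part was not tested.

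Set against monocyte-like cells, the resident macrophage-like cells differed in haptoglobin and Blvrb. Monocyte-like cells had 237 and 259 CPM of Hp, resident macrophage-like cells 5.67 and 2.41 CPM, and the 31 neutrophil-like cells 2034 and 2343 CPM. The 8 neutrophil markers summed to a median of 0 in monocyte-like cells, and S100a8 was at 21.8 and 24.9 CPM in them. Blvrb was at 293 and 324 CPM in resident macrophage-like and 166 and 164 CPM in monocyte-like cells, 1.76-fold (1.47 to 2.13) and 1.98-fold (1.66 to 2.37). Of 7 measured members, Blvrb was higher and Hp lower, where 8.74% and 9.09% of 2839 measured genes were. The members' median log2 ratio was -0.31 and -0.05, and that of all measured genes -0.07 and -0.03. The Blvrb call was lost when cluster 0 was left out, with a mean log2 ratio of 0.49, and with classes set by per-cell marker gates in place of clusters, with 0.26.

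No other measured member met the rule against monocyte-like cells. Hmox1 was at 132 and 196 CPM in resident macrophage-like and at 270 and 226 CPM in monocyte-like cells, 0.490-fold (0.419 to 0.575) and 0.867-fold (0.744 to 1.02), and without the Hmox1-rich cells the levels were 120 and 99.8 against 123 and 146 CPM. Slc11a1 was at 149 and 132 CPM against 132 and 137 CPM. Fth1 and Ftl1 had log2 ratios of 0.41 and 0.30, and -0.31 and 0.00. Cd163 had 353 and 268 UMIs in resident macrophage-like cells and 0 and 2 in monocyte-like cells, where 3 counts would be 4.09 CPM in hashed sample 1. Tfrc was low in both classes, between 3.24 and 11.2 CPM. In the wider list, Trf and Maf were higher and Nfe2l2 lower, of 11 measured genes. The dissociation stress genes were at medians of 13.2 and 14.3 UMIs per 10000 in resident macrophage-like and 42.7 and 52.5 in monocyte-like cells, and their part in these differences was not tested.

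A finer clustering resolution gave a classical monocyte cluster of 98 and 109 cells and a patrolling one of 37 and 53. Those of their cells that were in the monocyte-like class were compared, and this comparison was added after values were seen. Patrolling cells had Slc11a1 at 205 and 240 CPM against 117 and 104 CPM, Hpgd at 266 and 730 CPM against 117 and 439 CPM, and Fth1 at 4759 and 5554 CPM against 7714 and 8631 CPM. These were 2 higher and 1 lower of 7 measured members, where 14.3% and 6.89% of genes were. Hp was alike, at 266 and 250 CPM against 231 and 261 CPM.

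Type 2 dendritic cell-like cells had low levels of most members. Hmox1 was at 27.9 and 23.8 CPM in them, Slc11a1 at 10.3 and 8.18 CPM, Blvrb at 36.4 and 42.0 CPM, Ftl1 at 2787 and 3021 CPM, and Hpgd at 52.2 and 62.8 CPM. In resident macrophage-like cells Slc11a1 was 14.4-fold (8.95 to 24.9) and 16.1-fold (10.6 to 25.9) higher, Blvrb 8.06-fold (6.23 to 10.6) and 7.72-fold (6.39 to 9.40), Hmox1 4.74-fold (3.52 to 6.53) and 8.24-fold (6.42 to 10.7), or 4.28-fold and 4.19-fold without the Hmox1-rich cells, Ftl1 2.11-fold and 2.32-fold, and Hpgd 2.04-fold and 3.32-fold. These were 5 of 6 measured members, where 15.4% of 2807 measured genes were higher and 10.3% lower. The Hpgd call was lost without cluster 1. Fth1 missed the rule at log2 ratios of 0.58 and 0.73. The members' median log2 ratio was 1.49 and 2.10, beside 0.10 and 0.11 for all measured genes. In the wider list Lrp1, a receptor that also takes up heme bound to hemopexin, Blvra and Maf were higher, of 12 measured. The stress genes were at 44.8 and 51.4 UMIs per 10000 in the dendritic cells, a difference whose part was not tested.

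Slc40a1 had 59 and 139 UMIs in resident macrophage-like cells and none in type 2 dendritic cell-like cells, where 3 counts would be 1.82 and 1.12 CPM. Type 1 dendritic cell-like cells were lower still in some members, with Hmox1 at 15 and 6.87 CPM and Blvrb at 9.98 and 8.24 CPM. T cell-like cells had Hmox1 at 5.90 and 4.08 CPM and Slc11a1 at 5.08 and 3.57 CPM. With each cell thinned to 1000 UMIs, an Hmox1 UMI was seen in 9.60% and 9.14% of resident macrophage-like, 12.3% and 12.8% of monocyte-like, 2.58% and 1.94% of type 2 dendritic cell-like and 0.744% and 0.442% of T cell-like cells. C1qa, by comparison, was seen in 18.7% and 14.8% of T cell-like cells and 95.9% and 96.2% of resident macrophage-like cells.

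The balance of ferritin chains also differed between classes. Each UMI counts 1 molecule, but Fth1 and Ftl1 have near-identical copies elsewhere in the genome that the authors' counting could split, so the ratio is compared only between classes. There were 1.62 and 1.39 Fth1 UMIs per Ftl1 UMI in resident macrophage-like cells, 0.989 and 1.13 in monocyte-like cells. The value for the type 2 dendritic cell-like class was 2.29 and 1.94. The ratio was 1.36 and 1.29 for MHC II-low resident macrophage-like cells and 1.73 and 1.497 for MHC II-high ones. The ratio was lowest in patrolling monocyte-like cells, at 0.702 and 0.902, and in migratory dendritic cell-like cells, at 0.920 and 0.787, and higher in type 1 dendritic cell-like cells, at 3.16 and 1.99.

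**Figure D4:**
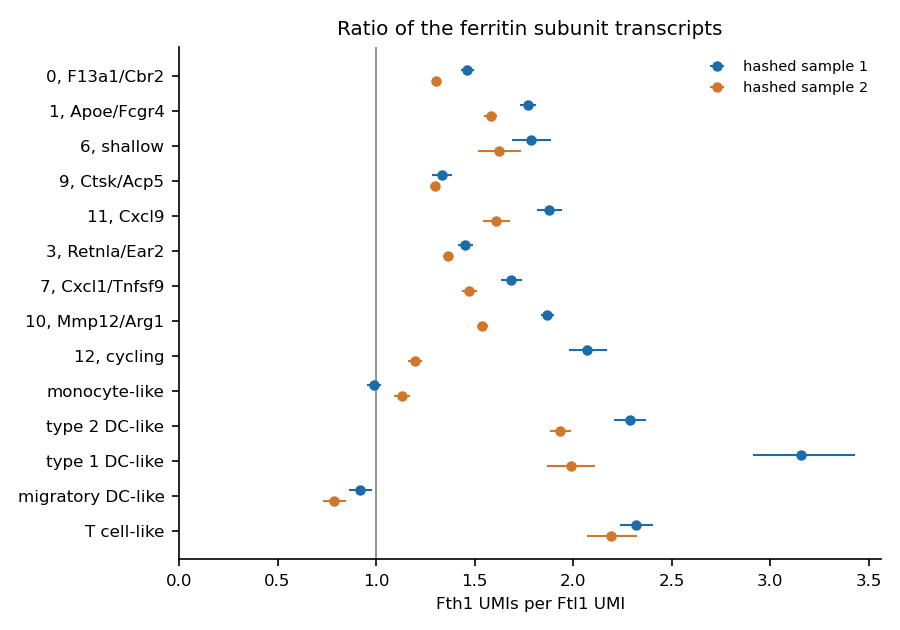
Fth1 UMIs per Ftl1 UMI (linear axis from 0) by cluster or class; points are hashed samples, bars exact 95% counting intervals and the line marks equal counts. Migratory dendritic cell-like cells are below 1 in both hashed samples, at 0.920 and 0.787, and type 1 and type 2 dendritic cell-like cells lie at 1.94 or above.

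Hpgd was higher in hashed sample 2 in several classes. It was at 106 and 208 CPM in resident macrophage-like cells (1.96-fold higher in hashed sample 2, 1.79 to 2.15), at 143 and 508 CPM in monocyte-like cells (3.55-fold, 2.86 to 4.44) and at 30.1 and 214 CPM in the proximal tubule-like cells (7.13-fold, 3.78 to 14.8). In type 2 dendritic cell-like cells it was at 52.2 and 62.8 CPM (1.20-fold, 0.924 to 1.58). Among resident macrophage-like cells, 1.51% of measured genes were at least 1.5-fold higher in hashed sample 2 and 1.26% lower, in monocyte-like cells 3.92% and 2.69%, and 1.46% and 0.769% for the type 2 dendritic cell-like class. Cd163 was lower in hashed sample 2, at 57.2 and 29.4 CPM over the resident macrophage-like cells (0.514-fold, 0.437 to 0.604) and 0.376-fold (0.315 to 0.448) in cluster 0. Hmox1 was at 132 and 196 CPM over the same cells, and at 115 and 100 CPM in thinned counts without the Hmox1-rich cells. Differences between animals, between samples of 1 animal and, given the title, between weeks cannot be told apart.

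**Figure D5:**
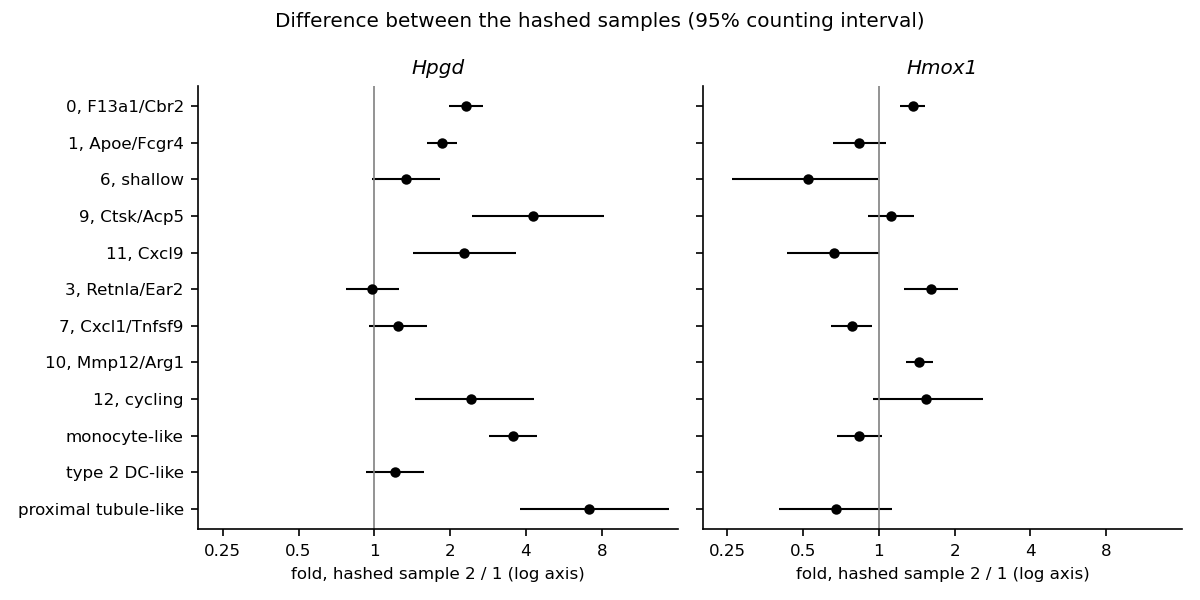
Fold of hashed sample 2 over hashed sample 1 (log axis) for Hpgd and Hmox1 by cluster or class, with exact 95% counting intervals; units in which a gene was not measured are left out. Hpgd is higher in hashed sample 2 in most units, up to 7.13-fold in proximal tubule-like cells, and Hmox1 has folds on both sides of 1.

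Levels across the 13 myeloid clusters were taken as the mean CPM of both hashed samples. The genes whose log2 level was most like that of Hmox1 were Atp6v1e1 (Pearson r = 0.91), a subunit of the lysosomal proton pump, Rap1b (0.90) and the lectin Clec4d (0.90). For Cd163 they were Etv1, Wwp1 and Gas6 (0.92, 0.91 and 0.91), with Cd163 above 50 CPM in 1 of the 13 clusters. Among the members themselves the highest correlations were Ftl1 with Blvrb (0.84) and Ftl1 with Hmox1 (0.81), and the lowest was Cd163 with Hp (-0.28). These are descriptions over 13 clusters of 1 single-cell sample, which differ in depth.

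The genes lie apart in the genome, by GENCODE on GRCm38: Hmox1 on chr8:75093621-75100589, Hpgd on chr8:56294585-56321043, Hp on chr8:109575128-109579172, Cd163 on chr6:124304656-124330527, Slc40a1 on chr1:45908068-45926523, Slc11a1 on chr1:74375195-74386062, Fth1 on chr19:9980598-9985098, Ftl1 on chr7:45457944-45459884, Blvrb on chr7:27447978-27466144 and Tfrc on chr16:32608920-32632794. The UMIs were counted over whole gene models with a 3′ chemistry, so that no value is tied to an exon or to 1 of the elements printed above.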

How the data were processed

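Viable CD45-positive cells of 1 single-cell sample, in 2 hashed samples, were analysed. The expression of the accompanying Visium section was not analysed here. The authors deposited unnormalized UMI counts, one per gene and barcode, which the file headers credit to Cell Ranger 6.1.1. Cell Ranger 6.0, Seurat 4.3.0 and mm10 stand in the submitters' processing notes. Barcodes under 200 genes or 500 UMIs, or over 10% mitochondrial UMIs, were removed (414), and Scrublet and the hashtags removed 44 and 5 doublets (0.742%), leaving 6552 cells. No barcode was shared between the hashed samples. After scaling to 10000 UMIs, clustering (scanpy 1.11.5, leidenalg 0.10.2, Python 3.11.15) ran on 2000 variable genes, 30 components, 15 neighbours and resolution 1 (2 for monocytes), without the members, the 46 wider-list genes, 11 MHC class II genes and mitochondrial genes. Clusters were called "like" a type when at least 3 of its markers, and at least 60% of them, were detected.

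UMIs were summed per class and hashed sample and scaled to CPM. A gene counted as higher or lower when log2 ratios (10 CPM added) reached 1.5-fold the same way in both hashed samples, with 50 CPM in at least 1 class in each. With no replicate animals named, no test was made. Intervals are exact 95% Poisson, conditional or Clopper-Pearson intervals and, like the limits from 3 counts, cover counting error only. The rule was tested on simulated counts. TMM factors (edgeR 4.0.16), other thresholds and per-cell gates were alternatives. Named genes are the 10 members everywhere and those of the wider list that met the rule. In Hmox1-rich cells Spic and Slc48a1 of the wider list, and Gclm and Prdx1 from outside it, were added. The members and lists were chosen with earlier results of these data known, and the 60% share, the gate levels, the Hmox1-rich threshold, the comparisons of cluster 10 and of monocyte subsets, and Spic, Slc48a1, Gclm and Prdx1 in Hmox1-rich cells after values were seen. Iron-responsive elements were read from GENCODE transcripts and the GRCm38 genome.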

Additional observations from a re-analysis of the deposited data

How the results depend on the processing

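No called value changed sign under the settings tried. Of the recomputed values of single genes, levels and shares, 339 stayed on their side of the 1.5-fold rule or within their error, 14 moved beyond it, 14 came to pass the rule and 5 ceased to. For the Hmox1-rich cells left out, this tally holds 19 values, all the same. It does not hold the Hmox1 calls within cluster 0, within cluster 9 and in cluster 10, which were lost without those cells. Thinning to 2000 UMIs gave 7 of the 14 moves and left 5 values the same. TMM factors gave 5 moves, with 45 values the same, and per-cell gates gave 2, with 14 the same. In MHC II-low against MHC II-high cells 1 member was higher. The count was 3 when genes were measured from 10 CPM, and 2 with means over cells, with per-cell gates, with the members kept in the clustering, or with cluster 1 or cluster 9 left out (both added after seeing the data), and leaving out each hashed sample gave 1 to 3. Hmox1 was among them in each case. In resident macrophage-like against monocyte-like cells 1 member was higher. The count was 2 from 10 CPM and 0 with a fold rule of 2, with per-cell gates or with cluster 0 left out, and 1 to 2 by leaving out each hashed sample. For the 1 lower member there the count was 3 with means over cells, 2 with cluster 0 or cluster 1 left out, and 2 to 2 by leaving out each hashed sample. The cause was not tested. Ratios between classes were taken within each hashed sample, which pairs the classes. Depth limits Slc40a1, Tfrc, Cd163 and Hp, which were under 50 CPM in most classes.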
